A study of Mus musculus with 16 samples.

Results

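The comparison described here sets the striatum of all 8 R6/1 mice against that of all 8 wild-type mice of the series, so that every one of its 16 libraries takes part. R6/1 mice carry a transgene with the first exon of the human huntingtin gene and an expanded CAG repeat, driven by the human promoter, and the wild-type mice were their littermates. All 16 were untreated males on a C57Bl/6 background (substrain J in the study's methods) aged 14 weeks, and each genotype held 4 mice classed as “good” and 4 classed as “poor” from motor and body weight scores. Each library is 1 mouse. The genotype effect was estimated as the mean of the R6/1 “good” and R6/1 “poor” groups minus the mean of the wild-type “good” and “poor” groups in 1 fit of all 4 groups, over the 19363 genes that reached 10 counts or more in 4 or more of the libraries.

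The striatum is the main input nucleus of the basal ganglia, and most of its neurons are medium spiny neurons, GABAergic cells that receive glutamate from cortex and thalamus and dopamine from the midbrain. They form a direct pathway, whose cells express the D1 dopamine receptor with dynorphin and substance P, and an indirect pathway, whose cells express the D2 receptor, the adenosine receptor Adora2a and enkephalin. Huntington disease affects these neurons early, and loss of their typical transcripts before cell death is a known feature of its mouse models. In bulk tissue, fewer cells of a type and less RNA per cell cannot be told apart.

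The libraries held 16155356 to 24897354 counts (median 20889934). TMM scaling factors, which make the bulk of genes comparable between libraries, were 0.938 to 0.989 in wild-type and 1.00 to 1.06 in R6/1 libraries, without overlap. This scaling bears on the counts and list medians reported. Scaled by total counts alone, a choice added after the data were seen, 5689 genes were called higher and 2454 lower in place of 3371 and 3407. The median log2 fold change of all genes was 0.11 in place of 0.02. Among genes called with TMM, 0 changed sign. Markers of medium spiny neurons were abundant in all libraries. Markers of neighbouring tissue varied between mice of both genotypes, and summed hypothalamic markers reached 47.0 and 30.6 CPM (counts relative to the TMM-scaled library total) in R6/1 “poor” mice 1 and 3 against 7.01 to 20.7 in the other 14 mice. The expression table holds mouse genes only, so the human transgene was not measured. Endogenous Htt had a minimum of 147, a median of 160 and a maximum of 177 CPM in wild-type mice and 161, 178 and 207 CPM in R6/1 mice, with overlap, and it was not called (log2 fold change 0.14 ± 0.06 SE, adjusted p = 0.063, edgeR).

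The genotype effect was broad, and falls were larger than rises. With edgeR's quasi-likelihood test and a Benjamini-Hochberg threshold of 0.05, 6778 of 19363 genes (35.0%) were called, 3371 (17.4%) higher and 3407 (17.6%) lower in R6/1 mice. All 8 R6/1 mice lay above all 8 wild-type mice in 784 genes (4.05%) and below them in 973 genes (5.03%). The median change of called genes was 1.23-fold for rises and 1.38-fold for falls. Over 2-fold, there were 126 rises and 547 falls. Over 4-fold, there were 5 rises and 91 falls, and over 8-fold, 2 rises and 31 falls. Genes called lower took 34.5% ± 1.7 (SD, n = 8) of the unscaled counts of tested genes in wild-type mice and 25.8% ± 1.6 in R6/1 mice, and genes called higher took 18.7% ± 0.73 and 24.0% ± 0.83. These genes were chosen by their calls in the same libraries, so the direction of both differences follows largely from that choice. Abundant genes were called lower more often than others, 34.3% of the 1842 genes whose average log2 CPM was 7 or more against 19.9% of the 4932 genes between 5 and 7, shares that were not tested.

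**Figure D1:**
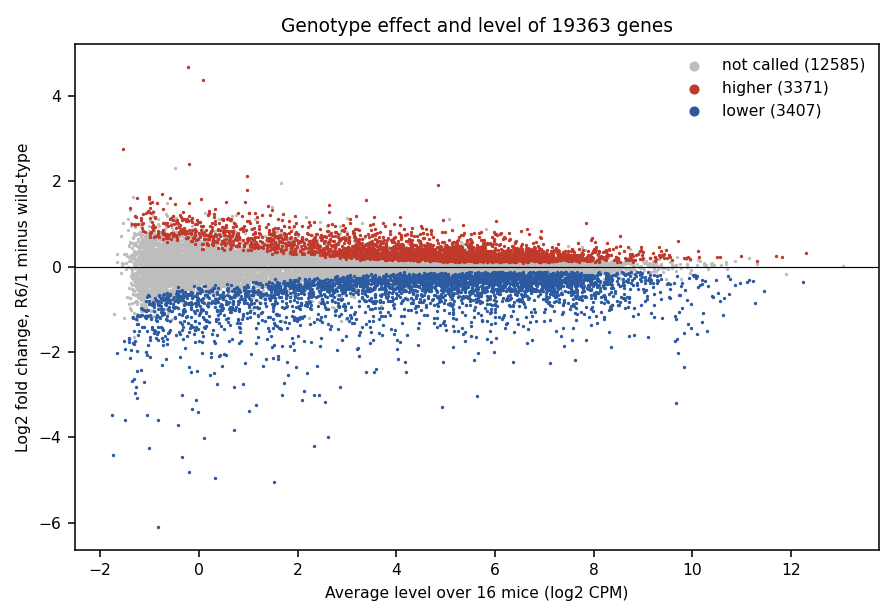
Log2 fold change (R6/1 minus wild-type, vertical) against average level over 16 mice (log2 CPM, horizontal) for each of 19363 genes, coloured by call (edgeR, adjusted p under 0.05). The 3371 rises stay mostly close to 0, while the 3407 falls spread further, with 547 of them over 2-fold.

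Promoter sequences are shown for 2 of the genes with the largest falls and 2 with the largest rises among those present in the RefSeq table (GRCm38.p6), so that the letters behind the motif counts can be seen. Gpx6 encodes a glutathione peroxidase and Scn4b a sodium channel beta subunit typical of medium spiny neurons, and both fell. Sfmbt2 encodes a Polycomb group protein and Pcdh19 an X-linked protocadherin, and both rose. Each run holds 250 bases before and 50 after the annotated start, 5′ to 3′, and capitals mark matches on either strand to the motifs named below.
Gpx6 promoter (chr13:21311953-21312252, + strand): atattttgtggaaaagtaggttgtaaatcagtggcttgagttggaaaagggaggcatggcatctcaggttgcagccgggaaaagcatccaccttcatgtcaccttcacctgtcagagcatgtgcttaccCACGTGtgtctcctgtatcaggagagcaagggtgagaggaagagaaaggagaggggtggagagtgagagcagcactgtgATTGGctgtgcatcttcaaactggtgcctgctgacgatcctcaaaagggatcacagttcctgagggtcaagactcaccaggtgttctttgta
Scn4b promoter (chr9:45138374-45138673, + strand): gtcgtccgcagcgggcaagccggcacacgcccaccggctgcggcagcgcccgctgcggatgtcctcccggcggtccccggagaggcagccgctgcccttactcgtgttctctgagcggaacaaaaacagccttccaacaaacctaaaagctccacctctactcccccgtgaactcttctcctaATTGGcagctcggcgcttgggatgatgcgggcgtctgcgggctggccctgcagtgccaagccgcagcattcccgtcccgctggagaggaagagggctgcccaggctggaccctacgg
Sfmbt2 promoter (chr2:10370201-10370500, + strand): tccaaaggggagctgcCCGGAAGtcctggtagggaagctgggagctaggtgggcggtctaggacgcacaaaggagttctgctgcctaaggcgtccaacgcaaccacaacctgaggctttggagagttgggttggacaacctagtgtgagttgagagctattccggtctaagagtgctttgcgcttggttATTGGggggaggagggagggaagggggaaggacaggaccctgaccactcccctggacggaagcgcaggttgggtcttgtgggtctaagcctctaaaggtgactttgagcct
Pcdh19 promoter (chrX:133688944-133689243, - strand): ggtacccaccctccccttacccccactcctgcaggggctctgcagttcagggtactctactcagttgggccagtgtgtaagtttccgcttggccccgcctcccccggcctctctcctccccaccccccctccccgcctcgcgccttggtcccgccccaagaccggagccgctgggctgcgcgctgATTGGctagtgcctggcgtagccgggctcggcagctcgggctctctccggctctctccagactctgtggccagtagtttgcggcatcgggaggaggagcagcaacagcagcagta

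Over the 11936 protein-coding genes tested that had a promoter in the table, 8 short motifs were searched on both strands, with 1 promoter a gene. The motif CCGGAAG, typical of ETS factors, was found in 18.7% of 2380 promoters of genes called higher, in 11.0% of 2185 promoters of genes called lower, in 5% of the 260 called lower by over 2-fold and in 16.1% of all. The NRF1-type motif GCGCATGC was in 6.55%, 3.11%, 0.385% and 4.93% of the same sets, and the YY1-type motif AAGATGGC in 5.59%, 2.61%, 1.15% and 4.14%. Genes called higher by over 1.5-fold did not share the high values, with CCGGAAG in 9.33% of 300. Among the most abundant of 3 equal classes of genes by level, CCGGAAG was in 18.7% of promoters called higher, 12.1% called lower and 19.9% not called. The CCAAT box was found in 39.4% of promoters called higher and 37.8% called lower, against 38.4% of all, and the cAMP response element TGACGTCA in 3.32% and 2.97%, against 3.02%. The other motifs were the EGR motif GCGTGGGCG (1.22% higher, 1.10% lower), the E-box CACGTG (10.8% and 8.19%) and the TATA box TATAAA (6.51% and 8.33%). These motifs do not contain one another. The sets also differed in CG pairs (C followed by G), which CCGGAAG and GCGCATGC contain and AAGATGGC does not. Fewer than 10 CG pairs were found in 48.1% of promoters called lower by over 2-fold, against 22.8% of all. The same held for 34% of those called higher by over 1.5-fold, 15.6% of all called higher and 26.9% of all called lower. A match describes letters only, and these shares were not tested. Whether the motif shares follow from the number of CG pairs was not tested either.

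The largest falls among genes averaging 1 log2 CPM or more, with no overlap between genotypes, were in Gpx6, Egr2, Gm39043, AC128672.1, Ptprv, Sec14l3, Scn4b, Abhd11os, Phex, Ryr1, Fst, Ankk1, Plekhg4, Fgf3 and Ptpn7, with log2 fold changes from -5.05 to -2.81. Gpx6 had 3.37, 5.79 and 7.36 CPM (minimum, median and maximum) in wild-type mice and 0.0405, 0.123 and 0.400 CPM in R6/1 mice (log2 fold change -5.05 ± 0.27 SE, adjusted p = 1.2e-08). The highest R6/1 mouse thus lay far below the lowest wild-type mouse.

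Scn4b was the abundant gene of this set, with 1085, 1386 and 2118 CPM in wild-type mice and 100, 148 and 314 CPM in R6/1 mice (log2 fold change -3.18 ± 0.19, adjusted p = 7.2e-08). Ryr1, a calcium release channel of the endoplasmic reticulum, had 65.1, 78.2 and 145 CPM against 7.74, 10.2 and 13.9 CPM (-3.03 ± 0.17, adjusted p = 6.0e-08). Fst, which encodes the activin-binding protein follistatin, had 3.91, 5.29 and 9.08 CPM against 0.300, 0.707 and 1.02 CPM (-3.01 ± 0.20, adjusted p = 6.7e-08). None of these groups overlapped. Phex, an X-linked endopeptidase gene, and the fibroblast growth factor gene Fgf3 fell by 3.12 ± 0.23 and 2.92 ± 0.23 on the log2 scale.

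Several of these genes share a locus with another gene. Ptprv, a receptor phosphatase locus annotated as a processed transcript, fell by 3.28 ± 0.27 on the log2 scale, and the antisense Gm10535 across it by 3.33. Since the strand setting of the counting is not stated, their reads cannot be told apart. Abhd11os overlaps Abhd11 on the opposite strand, and there Abhd11 itself had a log2 fold change of -0.02 and was not called. Ankk1 lies beside Drd2 and fell by 3.01 ± 0.27. Below the level limit, Gm17091, an unprocessed pseudogene, had the most negative value of all called genes, with 157 counts over the wild-type libraries and 2 over the R6/1 libraries.

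Under the same limit of level, and with no overlap between genotypes, the largest rises were in Sfmbt2, Tpx2, Ccdc87, Tnnt2, Ifitm7, Gm6013, Pld6, Phf2os1, Lrriq1, Cdh18, Rbm11, Cdc45, Pcdh19, AW495222 and Pcdhb2, with log2 fold changes from 1.04 to 1.56. Sfmbt2 had 3.86, 5.12 and 6.77 CPM in wild-type mice and 10.8, 15.5 and 18.9 CPM in R6/1 mice (1.56 ± 0.11, adjusted p = 1.0e-07). Tpx2, a spindle assembly factor, had 1.72, 3.23 and 4.61 CPM against 6.92, 9.17 and 10.6 CPM (1.44 ± 0.16, adjusted p = 4.1e-06). In both genes every R6/1 mouse lay above every wild-type mouse.

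Cdh18, a type II cadherin, had 7.04, 10.4 and 13.9 CPM in wild-type and 20.1, 23.6 and 26.3 CPM in R6/1 mice (1.16 ± 0.11, adjusted p = 1.4e-06). Pcdh19 had 11.2, 20 and 27.3 CPM against 34.3, 40.0 and 54.5 CPM (1.09 ± 0.17, adjusted p = 0.00015). The cell cycle gene Cdc45 and the RNA-binding protein gene Rbm11 each rose by 1.13 on the log2 scale. Ifitm7 and Pcdhb2 belong to families of near-identical copies. Phf2os1, AW495222, Cdc45, Ifitm7 and Cdh18 overlap genes on the opposite strand (Phf2, Dmgdh, Ufd1, 2900011O08Rik and the pseudogene Hnrnpa1l2-ps2). The values of all these genes are uncertain to that extent.

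The 2 rises over 8-fold were in Wt1 and Pou4f1, transcription factor genes of kidney and of sensory neurons and medial habenula, which were close to silent in wild-type striatum. Wt1 had 0 to 5 counts in each wild-type library, 14 in all with 3 libraries at 0, and 25 to 61 counts in each R6/1 library, 311 in all (4.37 ± 0.43 on the log2 scale, adjusted p = 1.6e-06). Pou4f1 had at most 2 counts in a wild-type library, 9 in all, and 10 to 112 in an R6/1 library, 254 in all (4.69 ± 0.63, adjusted p = 3.7e-05). The fitted folds of genes this low depend on the prior count, but the groups did not overlap in either gene. The highest Pou4f1 value, 4.79 CPM, was that of R6/1 “poor” mouse 1, whose hypothalamic and septal markers were also highest, and the other 7 R6/1 mice had 0.405 to 1.42 CPM against at most 0.101 CPM in wild-type mice. The part of neighbouring tissue in that value was not tested. Of 84 developmental transcription factors of other lineages on the list, 26 were abundant enough to test, and Wt1 and Pou4f1 were the 2 called higher, with 3 called lower, Lhx2 (-0.57), Six3 (-0.44) and Foxf2 (-0.33). The 26 include genes that passed the filter only through R6/1 libraries, so their count is no measure of the list. The other rises over 4-fold, named after their values were seen, were in Stil, Rgs13 and the antisense transcript Gm12462.

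**Figure D2:**
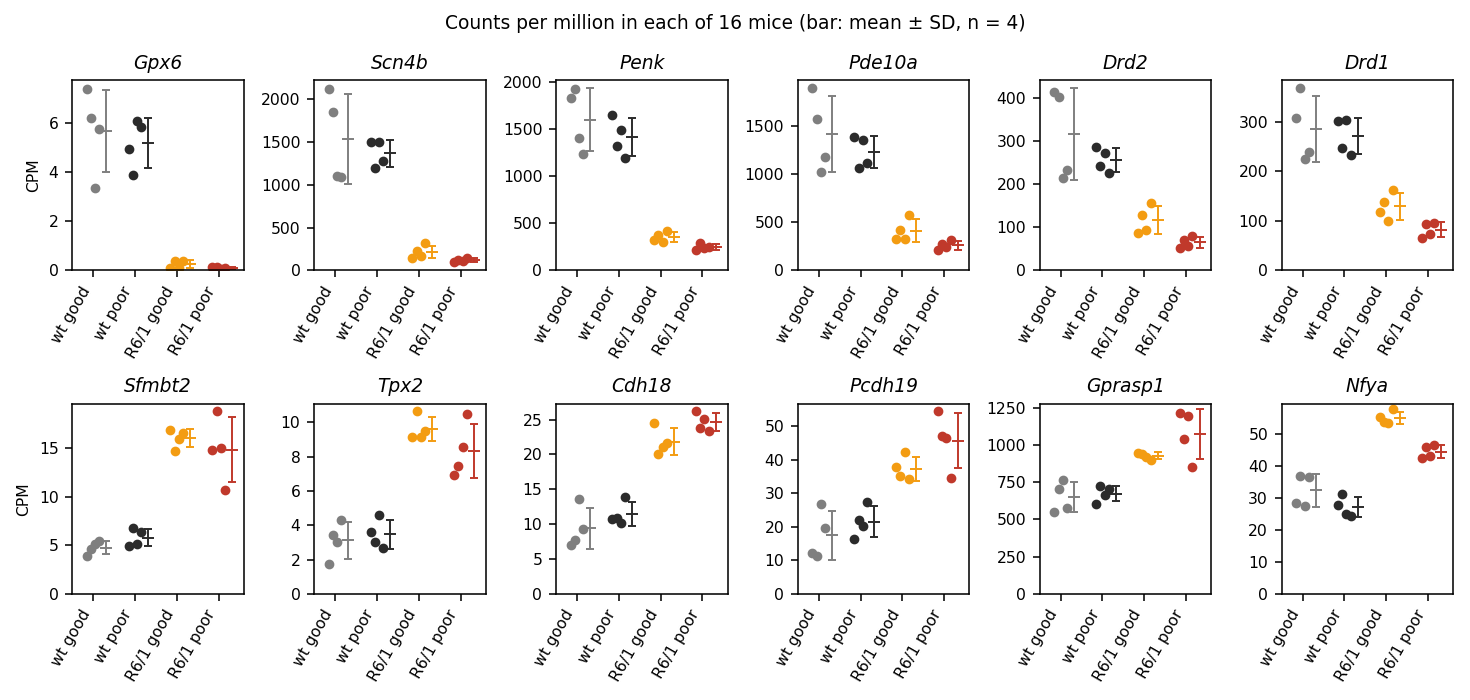
CPM of 12 genes in each of 16 mice, from 0 on a linear vertical axis, by group along the horizontal axis. Points are mice, and the bars beside them give mean ± SD (n = 4). In all 12 genes the 8 R6/1 mice lie wholly below (Gpx6 to Drd1) or wholly above (Sfmbt2 to Nfya) the 8 wild-type mice.

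Among the most abundant genes whose groups did not overlap, Slc1a2, Ndrg4, Cpe and Scd2 fell and Meg3, Ubb, Eef1a1, Gprasp1 and Chd3 rose. Slc1a2, the main glutamate transporter of astrocytes, had 2923, 3190 and 3474 CPM in wild-type and 1559, 1689 and 2180 CPM in R6/1 mice (-0.84 ± 0.07, adjusted p = 5.7e-07). The imprinted noncoding RNA Meg3 had 4078, 4533 and 4905 CPM against 5046, 5642 and 6329 CPM (0.31 ± 0.05, adjusted p = 0.00033). Ubb and Eef1a1, which encode polyubiquitin and the elongation factor eEF1A1, rose by 0.23 ± 0.04 and 0.26 ± 0.05 on the log2 scale, and Cpe, the carboxypeptidase that processes neuropeptides, fell by 0.31 ± 0.05. Ubb and Eef1a1 have near-identical copies elsewhere in the genome.

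Genes of medium spiny neuron identity and signalling fell together. All 31 on the list were called lower, against 17.6% of all genes, with log2 fold changes from -3.18 to -0.53 and a median of -1.27 beside 0.02 for all genes tested. In 26 of the 31 every R6/1 mouse lay below every wild-type mouse, as in 5.03% of all genes. Pde10a, the striatal phosphodiesterase that degrades both cyclic nucleotides, had 1024, 1267 and 1892 CPM in wild-type and 210, 319 and 580 CPM in R6/1 mice (-2.01 ± 0.15, adjusted p = 3.0e-07). Ppp1r1b, which encodes DARPP-32, had 1017, 1116 and 1655 CPM against 222, 356 and 637 CPM (-1.74 ± 0.15, adjusted p = 8.6e-07). The adenylyl cyclase gene Adcy5 and Arpp21, a phosphoprotein of the same pathway, fell by 1.55 and 1.57 on the log2 scale. Members with smaller falls included the G protein gene Gnal (-0.53), and the transcription factor genes Meis2 (-0.62), Rarb (-0.75), Foxp1 (-0.85) and Bcl11b (-0.87).

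Both output pathways were affected, with shares called lower above the 17.6% of all genes. Of 8 indirect-pathway genes tested, 5 were called lower and 0 higher (median -1.01), and of 9 direct-pathway genes, 5 were called lower and 0 higher (median -0.47). Penk, the enkephalin precursor, had 1197, 1444 and 1925 CPM in wild-type and 214, 298 and 422 CPM in R6/1 mice (-2.34 ± 0.11, adjusted p = 4.0e-09). Drd2 had 214, 258 and 415 CPM against 52.9, 83.0 and 157 CPM (-1.71 ± 0.17), and Drd1 had 225, 274 and 368 CPM against 66.3, 97.4 and 162 CPM (-1.43 ± 0.13). Adora2a fell by 2.19 ± 0.20 on the log2 scale, the orphan receptor gene Gpr6 by 1.63 ± 0.16 and the muscarinic receptor gene Chrm4 by 1.48 ± 0.12. Among the peptide precursors of the direct pathway, Pdyn fell by 1.05 ± 0.11 and Tac1 by 0.47 ± 0.10, with overlapping groups only in Tac1. The lineage transcription factors Isl1 (0.19), Ebf1 (-0.00), Zfp521 (0.03) and Sp9 (-0.36) did not pass the threshold.

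Interneuron genes also fell, in shares above the 17.6% of all genes called lower. Of 9 cholinergic genes, 6 were called lower and 0 higher, among them Chat, the acetylcholine-synthesizing enzyme (-1.75 ± 0.17), the vesicular glutamate transporter gene Slc17a8 (-1.59 ± 0.14) and the choline transporter gene Slc5a7 (-1.43 ± 0.17). Chat and Slc18a3 share a locus and strand. Of 12 GABAergic interneuron genes, 7 were called lower and 0 higher, with Pthlh (-1.86 ± 0.18), Sst (-0.79 ± 0.09) and Nos1 (-0.79 ± 0.08), the somatostatin and nitric oxide synthase genes, among them. Npy, the neuropeptide Y precursor, had 47.4, 51.9 and 72.8 CPM in wild-type and 15.9, 33.2 and 38.5 CPM in R6/1 mice.

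Receptors and their regulators followed, beside 17.6% of all genes called lower and 17.4% called higher. Of 23 striatal receptor genes 20 were called lower and 1 higher, Htr2c, the serotonin 2C receptor (0.59, adjusted p = 0.00096). Hrh3, the histamine H3 receptor, had 78.7, 92.6 and 107 CPM in wild-type and 20.9, 26.7 and 38.5 CPM in R6/1 mice (-1.76 ± 0.11, adjusted p = 3.6e-08). The orphan receptor gene Gpr83 and Oprd1, the delta opioid receptor, fell by 1.52 ± 0.10 and 1.60 ± 0.15. Of 16 regulators of G protein signalling on the list 12 were called lower and 1 higher, Rgs19 (0.70). All 19 protein-coding genes tested with Rgs symbols had 12 called lower and 2 higher. Rgs13, which was not on the list, rose by 2.41 ± 0.52 at a low level, with overlapping groups. Rgs9, whose long form is typical of striatum, had 413, 499 and 679 CPM against 82.5, 131 and 240 CPM (-1.88 ± 0.15, adjusted p = 6.0e-07), and Rgs14 and Rgs11 fell by 1.70 ± 0.16 and 1.51 ± 0.12.

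Among channels, 24 of 54 potassium channel subunits (44.4%) were called lower and 0 higher (median -0.28), against 17.6% of all genes called lower. Genes for calcium channels, release channels and pumps had 20 of 36 (55.6%) called lower and 3 higher (median -0.34). Kcnh4 had 37.1, 46.9 and 68.5 CPM in wild-type and 5.38, 10.4 and 21.1 CPM in R6/1 mice (-2.22 ± 0.18, adjusted p = 7.6e-07). Itpr1, the inositol trisphosphate receptor, fell by 1.21 ± 0.13, and the calcium pump gene Atp2b2 by 0.79 ± 0.08. Sodium channel subunits went both ways, with 3 of 10 called lower and 3 higher. Besides Scn4b, Scn2b fell by 0.51 ± 0.06, while Scn9a had 19.9, 25.1 and 29.2 CPM in wild-type and 33.0, 45.5 and 50.8 CPM in R6/1 mice (0.86 ± 0.09, adjusted p = 1.8e-06). The leak channel gene Nalcn rose by 0.39 ± 0.06. Of 14 GABA-A receptor subunits, 3 (21.4%) were called lower and 2 (14.3%) higher, near the 17.6% and 17.4% of all genes. The 2 became 5 without wild-type “good” mouse 3, and with total counts as the scale 2 were lower and 6 higher, so the balance depends on the scaling. The extrasynaptic delta subunit gene Gabrd had 133, 166 and 193 CPM against 29.6, 51.7 and 81.1 CPM (-1.72 ± 0.12, adjusted p = 2.0e-07).

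Postsynaptic genes fell together, beside 17.6% of all genes called lower and 17.4% called higher. Of 31 postsynaptic density and spine genes 24 were called lower and 0 higher (median -0.53), and of 42 synaptic vesicle and release genes 15 were called lower and 4 higher (median -0.12), and the difference between these lists was not tested. With total counts as the scale the postsynaptic list had 21 lower and 1 higher, and the vesicle list 9 lower and 7 higher (median -0.04). Ppp1r9b, which encodes the spine protein spinophilin, had 987, 1106 and 1199 CPM in wild-type and 427, 472 and 698 CPM in R6/1 mice (-1.16 ± 0.09, adjusted p = 1.3e-07). The scaffold genes Shank3 and Dlg4 fell by 1.17 ± 0.12 and 0.71 ± 0.09, and Camk2b by 0.77 ± 0.08. Cplx2 and Unc13a, which act in vesicle fusion, fell by 0.81 ± 0.11 and 0.66 ± 0.08. Of 24 glutamate receptor subunits 13 were called lower and 1 higher, with Grm4 (-1.09 ± 0.10), Grik2 (-0.91 ± 0.08) and Grin2c (-0.89 ± 0.10) among the falls. The kinase gene Itpka and the Ras effector gene Rin1 fell by 1.34 ± 0.17 and 1.18 ± 0.15, and the polo-like kinase gene Plk5 by 1.94 ± 0.16. The vesicle list's 4 calls higher became 2 without wild-type “poor” mouse 2 or without R6/1 “good” mouse 3.

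Immediate early genes, whose transcription follows neuronal activity within minutes, were lower in R6/1 mice, but wild-type mice differed widely among themselves. Of 30 such genes 22 were called lower and 0 higher (median -0.80), against 17.6% of all genes called lower. In 4 of the 30 all R6/1 mice lay below all wild-type mice, as in 5.03% of all genes. Egr2 had 2.17, 4.79 and 33.9 CPM in wild-type and 0.196, 0.492 and 0.900 CPM in R6/1 mice (-4.21 ± 0.63, adjusted p = 0.00018). Its highest values were those of wild-type “good” mouse 2 (33.9 CPM) and wild-type “poor” mouse 2 (14.8 CPM), and the other 6 wild-type mice had 2.17 to 6.99 CPM. Egr3 had 103, 121 and 242 CPM against 32.3, 44.0 and 89.4 CPM (-1.38 ± 0.23). Leaving out any 1 mouse left 21 to 25 of the 30 called lower. In the “good” mice alone 13 of 30 were called lower, in the “poor” mice alone 4, where 8.14% and 10.8% of all genes were called lower.

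**Figure D3:**
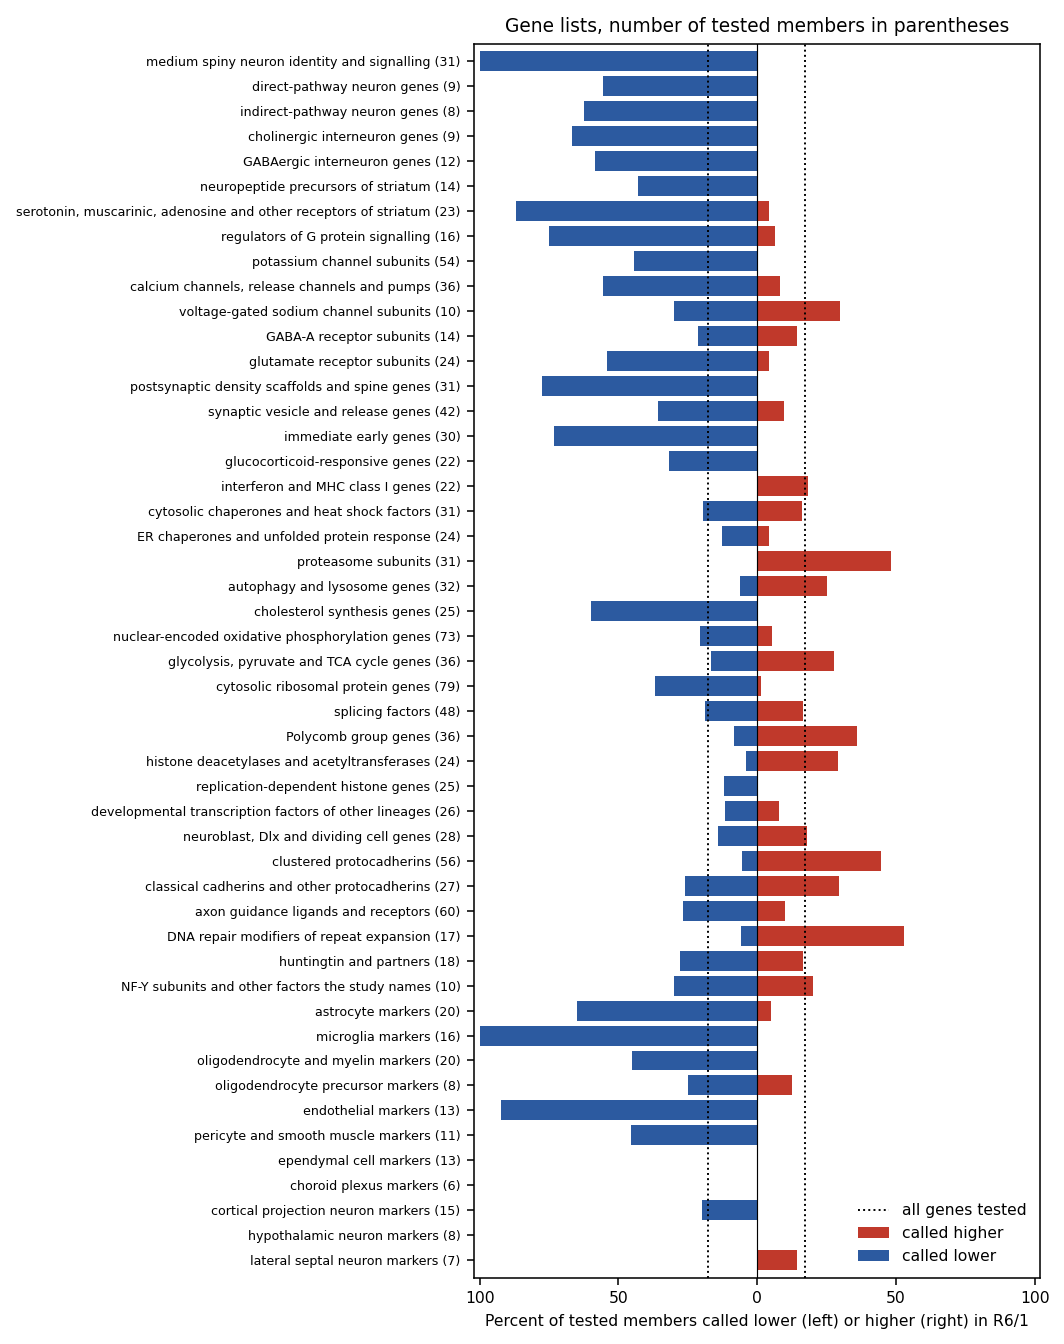
Percent of the tested members of each of 49 gene lists that were called lower (left, blue) or higher (right, red) in R6/1 mice, with the number of tested members in parentheses. Dotted lines give the 17.6% lower and 17.4% higher of all genes tested. Medium spiny neuron genes (31 of 31 lower) and microglia markers (16 of 16 lower) reach furthest left, and DNA repair modifiers (9 of 17), proteasome subunits (15 of 31) and clustered protocadherins (25 of 56) furthest right.

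Proteasome subunits, which degrade ubiquitin-tagged proteins, rose by small amounts. Of 31 proteasome subunits 15 were called higher and 0 lower, against 17.4% of all genes called higher, and 29 of 31 had values above 0, with a median of 0.14. Psmd1, a subunit of the regulatory particle, had 107, 118 and 120 CPM in wild-type and 139, 147 and 154 CPM in R6/1 mice (0.35 ± 0.04, adjusted p = 7.6e-06), without overlap. Psma5 of the core particle and the ATPase gene Psmc4 rose by 0.28 ± 0.05 and 0.21 ± 0.04. The 15 became 13 to 16 with any 1 mouse left out, and 29 with total counts as the scale.

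Other complexes with many rises were picked from 257 groups of genes with a shared symbol stem after their values had been seen. The nuclear RNA polymerase subunits, 28 genes named Polr1 to Polr3, had 15 called higher and 0 lower (median 0.18), led by Polr2a, the catalytic subunit of RNA polymerase II, at a median of 66.5 CPM in wild-type and 117 CPM in R6/1 mice (0.84 ± 0.06, adjusted p = 1.1e-07). Cullin genes had 6 of 8 called higher, protein arginine methyltransferases 6 of 8, with 1 lower, and exocyst subunits 6 of 11. Of all genes 17.4% were called higher, and of protein-coding genes 19.7%. Groups this small can reach high shares when picked from the top of so many. Falls by the same listing were most frequent in myosin heavy chains, with 6 of 9 called lower against 17.6% of all genes.

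Chromatin regulators had more calls higher than lower. Of 36 Polycomb group genes 13 (36.1%) were called higher and 3 (8.33%) lower (median 0.09), against 17.4% and 17.6% of all genes. The 24 histone deacetylases and acetyltransferases had 7 (29.2%) called higher and 1 (4.17%) lower (median 0.09). Besides Sfmbt2, Cbx8 had 7.83, 9.02 and 9.78 CPM in wild-type and 11.4, 14.0 and 16.1 CPM in R6/1 mice (0.62 ± 0.08, adjusted p = 2.2e-05). Cbx6, the most abundant Cbx gene named here, fell by 0.44 ± 0.07, from 410, 456 and 483 CPM to 295, 321 and 404 CPM. Hdac1 rose by 0.52 ± 0.06, and the acetyltransferase genes Ep300 and Crebbp by 0.32 ± 0.06 and 0.25 ± 0.05, while Hdac5 fell by 0.24 ± 0.05.

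Of 17 DNA repair genes known as modifiers of repeat expansion, 9 were called higher and 1 lower (median 0.23), against 17.4% and 17.6% of all genes. Mlh3, a mismatch repair protein gene, had 31.1, 35.5 and 42.7 CPM in wild-type and 39.7, 44.9 and 51.1 CPM in R6/1 mice, with overlap. Mlh3 and its relative Pms2 rose by 0.34 ± 0.07 and 0.32 ± 0.07, and Pcna by 0.23 ± 0.05. Among NF-Y subunits, Nfya had 24.3, 28.1 and 37.0 CPM against 42.5, 50.1 and 57.8 CPM (0.74 ± 0.07, adjusted p = 1.1e-06) and Nfyc rose by 0.38 ± 0.06, while Nfyb had a log2 fold change of 0.13 ± 0.07 and was not called.

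Clustered protocadherins are cell adhesion proteins whose promoters are chosen at random in each neuron. They had 25 of 56 genes called higher and 3 lower (median 0.32), against 17.4% and 17.6% of all genes. Values were above 0 in 48 of 56. The beta cluster held most of the calls, with 15 of 22 higher and all 22 above 0 (median 0.48), beside 6 of 12 in the alpha cluster and 4 of 22 in the gamma cluster, where 3 were called lower. Pcdhb9 had 10.3, 13.2 and 14.9 CPM in wild-type and 18.2, 21.2 and 24.8 CPM in R6/1 mice (0.73 ± 0.08, adjusted p = 2.5e-06), without overlap. Pcdhb22 and Pcdhb3 rose by 0.64 ± 0.08 and 0.80 ± 0.11. The genes of a cluster are similar in sequence and some share exons, so reads may be split between them. The 3 calls lower became 1 when any of 7 single mice was left out, wild-type “good” mouse 1 among them.

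A stretch at the start of chromosome 14 (3049285 to 7791651, GRCm38) holds 45 tested genes with numbered Gm symbols, 39 of them protein-coding and many near-identical to each other. Chosen after their values were seen, 26 were called higher and 0 lower, with a median of 0.71, against 17.4% of all genes called higher. Their summed level was 511, 666 and 964 CPM (minimum, median and maximum) in wild-type and 885, 1026 and 1753 CPM in R6/1 mice, with overlap. How reads were shared among these copies is not stated, so single members are not described.

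The X chromosome had a larger share of rises than any of the 19 autosomes. Of 644 X-linked genes tested 191 (29.7%) were called higher and 84 (13%) lower, while single autosomes had 14.5% to 20.9% called higher. The median log2 fold change was 0.13 on the X chromosome and 0.01 over all autosomes. X-linked genes differ in level from others, but among protein-coding genes averaging 3 log2 CPM or more the values were 40.3% of 382 against 22.9% of 10579. The share was 23.4% against 10.3% in libraries 1 to 8 alone, 17.5% against 6.99% in libraries 9 to 16 alone, and 41.5% against 29.0% with total counts as the scale. This pattern was noted after the data were seen, and was not tested.

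A run of neuronal genes of the Bex, Tceal, Armcx and Gprasp families, which have a shared origin in placental mammals, lies between 134686519 and 136711478 of the X chromosome (GRCm38). This run was not one of the 49 lists and was described after the data were seen. Of 19 tested, 15 were called higher and 0 lower (median 0.36), against 17.4% of all genes and 29.7% of X-linked genes called higher. In 11 of the 19 all R6/1 mice lay above all wild-type mice, as in 4.05% of all genes. Gprasp2, which encodes a protein that sorts G protein-coupled receptors, had 122, 145 and 193 CPM in wild-type and 228, 278 and 412 CPM in R6/1 mice (1.02 ± 0.12, adjusted p = 1.2e-05), and Gprasp1 had 552, 683 and 766 CPM against 851, 946 and 1215 CPM (0.59 ± 0.08, adjusted p = 3.2e-05). Gprasp1 overlaps Armcx5 and Bhlhb9 on the same strand. Bhlhb9, which its symbol kept out of the 19, had a log2 fold change of -0.13 and was not called. Without the 19 genes 28.2% of 625 X-linked genes were called higher.

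**Figure D4:**
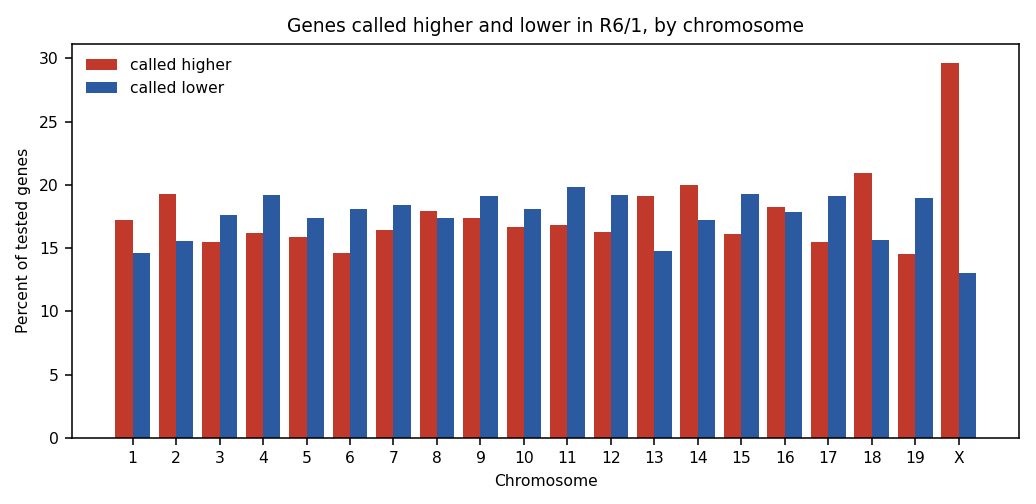
Percent of the tested genes of each chromosome called higher (red) or lower (blue) in R6/1 mice (edgeR, adjusted p under 0.05). The X chromosome has 29.7% called higher and 13% lower, and the autosomes have 14.5% to 20.9% called higher.

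Markers of several non-neuronal cell types fell, and those of others did not move together, beside 17.6% of all genes called lower and 17.4% higher. All 16 microglia markers were called lower, with log2 fold changes from -0.49 to -0.23, and their summed level was 853, 970.5 and 1084 CPM in wild-type and 623, 746 and 827 CPM in R6/1 mice, without overlap. Of 13 endothelial markers 12 were called lower, of 20 astrocyte markers 13, with 1 higher (S100b, 0.33), and of 20 oligodendrocyte and myelin markers 9. P2ry12, the purinergic receptor of resting microglia, had 61.4, 68.5 and 72.7 CPM against 43.5, 51.1 and 55.5 CPM (-0.42 ± 0.05, adjusted p = 2.3e-05). Among astrocyte genes Glul, glutamine synthetase, fell by 0.60 ± 0.07 and Aldoc by 0.66 ± 0.05, while Gfap, which rises in reactive astrocytes, had a log2 fold change of -0.14 ± 0.15. The myelin lipid enzyme gene Ugt8a fell by 0.70 ± 0.09, and the endothelial gene Pecam1 by 0.42 ± 0.05. With total counts as the scale, 14 microglia, 8 endothelial, 12 astrocyte and 8 oligodendrocyte markers were called lower. Of 8 oligodendrocyte precursor markers 2 were called lower, Cacng4 (-1.15 ± 0.12) and Vcan (-0.21 ± 0.06), and 1 higher, Enpp6 (0.51 ± 0.11), and 4 were lower without wild-type “good” mouse 2. Of 11 pericyte and smooth muscle markers 5 were called lower and 0 higher, but 0 in “good” mice alone and 7 in “poor” mice alone, and 1 with total counts. That count was 3 without wild-type “good” mouse 1, R6/1 “good” mouse 1 or R6/1 “good” mouse 2, 2 without wild-type “poor” mouse 1, R6/1 “poor” mouse 1 or R6/1 “poor” mouse 3, and 8 without wild-type “good” mouse 3. Of 13 ependymal markers 0 were called, 10 had values above 0 and the median was 0.30.

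Neighbouring tissue markers passed the threshold rarely. Of 15 cortical projection neuron markers 3 (20%) were called lower and 0 higher, near the 17.6% of all genes called lower. Their summed level ran from 292 to 1191 CPM in wild-type and from 283 to 1306 CPM in R6/1 mice. Of 7 lateral septal markers 1 was called higher, Trpc4 (0.48 ± 0.15), with a summed level of up to 94.1 CPM in wild-type mice and up to 214 CPM in R6/1 mice, reached in R6/1 “poor” mouse 1. Hypothalamic (8 tested) and choroid plexus markers (6) had 0 calls. Without R6/1 “poor” mice 1 and 3, a choice made after the data were seen, 2431 genes were called higher and 2626 lower, and all 31 medium spiny neuron genes remained lower. With cortical and hypothalamic marker scores as covariates the counts were 3675 and 3736.

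Metabolic and biosynthetic lists differed, beside 17.4% of all genes called higher and 17.6% called lower. Of 25 cholesterol synthesis genes 15 were called lower and 0 higher (median -0.27), with Insig1 (-0.63 ± 0.07), the sterol sensor partner, Msmo1 (-0.67 ± 0.09) and Acat2 (-0.36 ± 0.05) among them. Of 79 cytosolic ribosomal protein genes 29 were called lower and 1 higher (median -0.08), and with total counts as the scale 6 were lower and 7 higher (median 0.01), so their direction depends on the scaling. Of 73 nuclear-encoded oxidative phosphorylation genes 15 (20.5%) were called lower, near the share of all genes, and 4 (5.48%) higher (median -0.03). Under total counts 5 were lower and 16 higher. Glycolysis, pyruvate and TCA cycle genes had 10 of 36 (27.8%) higher and 6 (16.7%) lower, the latter near the share of all genes. Without wild-type “poor” mouse 3, 6 were higher.

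The ER chaperone and interferon lists gave counts near or below the shares of all genes, 17.4% called higher and 17.6% lower. Glucocorticoid-responsive genes had 7 of 22 (31.8%) called lower and 0 higher (median -0.05), with 7 lower in “good” mice alone and 2 in “poor” mice alone. Of 24 ER chaperone and unfolded protein response genes 3 were called lower and 1 higher, and the 3 became 6 without wild-type “good” mouse 4 or “poor” mouse 4, and 5 without wild-type “good” mouse 1, wild-type “poor” mouse 1 or R6/1 “poor” mouse 4. Hsp90b1, an ER chaperone, fell by 0.37 ± 0.11. Of 22 interferon and MHC class I genes 4 (18.2%) were called higher and 0 lower, with Irf7 (0.77 ± 0.16) and Ifit2 (0.47 ± 0.11). This share was near that of all genes, but the 4 became 9 without wild-type “poor” mouse 2 and 9 with total counts as the scale. In “good” mice alone 8 were called higher and in “poor” mice alone 1. Libraries 1 to 8 alone gave 10 and libraries 9 to 16 alone 1. Of the apoptosis and growth arrest genes named for the striatum, Cdkn1a fell by 0.86 ± 0.20, Ddit4 by 0.34 ± 0.08 and Bcl2 by 0.32 ± 0.12, and Bax had a log2 fold change of 0.01 ± 0.07.

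The genotype effect was seen in sets of mice that share no animal, “good” against “poor” mice and libraries 1 to 8 against 9 to 16, although these 2 divisions nearly coincide in R6/1 mice. In “good” mice alone 1121 genes (5.79%) were called higher and 1577 (8.14%) lower, and in “poor” mice alone 1642 (8.48%) and 2093 (10.8%). Of the 1121 rises in “good” mice 97.8% had the same sign in “poor” mice, where 51.2% of all genes were above 0, and 54.7% were called there as well. Of the 1577 falls 96.8% had the same sign in “poor” mice and 66.8% were called, and 0 genes were called in opposite directions. Libraries with running numbers 1 to 8, which held 5 R6/1 mice, gave 2088 genes (10.8%) higher and 2280 (11.8%) lower, and libraries 9 to 16, which held 3, gave 1423 (7.35%) and 1978 (10.2%). Of the 2088 rises in the former 98.7% had the same sign in the latter, and of the 2280 falls 97.4%, with 3 genes called in opposite directions.

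**Figure D5:**
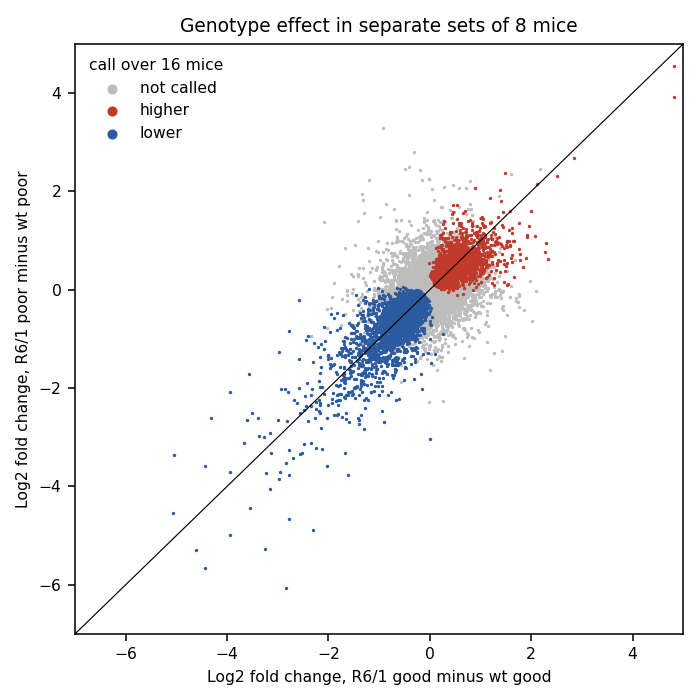
Log2 fold change of R6/1 against wild-type in “poor” mice (vertical) and in “good” mice (horizontal), from separate fits of 8 mice each, for 19363 genes coloured by their call over all 16 mice. Genes called lower (blue) and higher (red) lie along the line of equal change. Their calls use the same mice as both axes, so this position follows in part from the selection. In the separate fits 0 genes were called in opposite directions.

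The difference of the genotype effect between “poor” and “good” mice was tested as an interaction in the fit of all 4 groups. It gave 0 called genes (0%) of 19363 by edgeR, 1118 with an unadjusted p under 0.05, and a smallest adjusted p of 0.708. DESeq2 called 1 gene, Ano2, a calcium-activated chloride channel gene. Medians of medium spiny neuron genes were -1.13 in “good” mice and -1.46 in “poor” mice, and this difference was not tested. All 4 R6/1 “good” mice were in libraries 1 to 8 and 3 of 4 R6/1 “poor” mice in libraries 9 to 16, and those sets alone gave medians of -1.23 and -1.49, so performance class and library number can hardly be told apart in R6/1 mice.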

How the data were processed

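Striatal mRNA was measured by RNA-seq in 16 mice, 4 in each of 4 groups. Per the labels and the study's methods, the authors prepared stranded mRNA libraries and mapped reads to GRCm38 with TopHat 1.0.1. Bowtie and CASAVA are also named. The deposited table gives 55450 genes in raw counts, as the authors left them. Not given in the sources used here were the read counter, its strand setting and the annotation. Symbols and positions come from a GENCODE annotation of GRCm38, which matched all 55450 gene IDs. All libraries have 0 counts for the 13 mitochondrial mRNAs.

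The 19363 genes reaching 10 counts in 4 libraries or more were scaled by TMM and fitted with edgeR 4.0.16 (R 4.3.3), with robust quasi-likelihood tests and Benjamini-Hochberg adjustment at 0.05. Each SE was derived from the test, as the absolute log2 fold change divided by the square root of the F statistic. CPM, counts relative to the library total, use TMM-scaled totals, and total counts of 16155356 to 24897354 limit precision for genes of few counts. The scripts were tested on simulated data. The rule for named genes took the 15 largest rises and falls averaging 1 log2 CPM or more without overlap between genotypes, the 5 most abundant such genes per direction, up to 4 members of each of 49 lists by p, 5 genes per direction for the interaction, and genes the study names, some of which are not reported here. Lists and comparison were chosen with earlier results of these data known, and lists were described without tests. Alternatives were DESeq2 1.42.0, RLE factors, 2 other filters, the replicate number as a block, genotype alone, libraries 1 to 8 and 9 to 16 as a covariate or alone, each performance class alone, and leaving out each mouse. Added after seeing the data were total counts as the scale, marker covariates, and leaving out R6/1 “poor” mice 1 and 3. Each library is 1 animal. The study drew on several cohorts and litters, which the labels do not tie to libraries and which were not used here.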

Additional observations from a re-analysis of the deposited data

Results flagged for a closer look

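Within groups of 4 mice, 204 sets of values (40 genes and 11 marker sums) were searched for a mouse far from the other 3, with a limit that chance passes in about 1 of 20 sets, and 9 passed. Egr2 was 33.9 CPM in wild-type “good” mouse 2 against 3.18 to 6.99 CPM in the others. Ndrg4 was 2818 CPM in wild-type “good” mouse 4 (others 2625 to 2650), Tnnt2 11.2 CPM in R6/1 “poor” mouse 2 (7.36 to 7.90) and Ptpn7 13.2 CPM in wild-type “poor” mouse 1 (10.4 to 10.7). AC128672.1 was 0.599 CPM in R6/1 “good” mouse 4 (0.234 to 0.294) and 0.777 CPM in R6/1 “poor” mouse 4 (0.0427 to 0.162). Low values were AW495222 at 0.83 CPM in wild-type “good” mouse 2 (1.41 to 1.51), Pcdhb2 at 0.887 CPM in wild-type “good” mouse 1 (1.36 to 1.40) and the summed microglia markers at 678 CPM in R6/1 “good” mouse 1 (802 to 827).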

How the results depend on the processing

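The genotype counts of 3371 higher and 3407 lower stayed within 1.5 times under DESeq2, RLE factors, both other filters, genotype alone, the library number (1 to 8 or 9 to 16) as a covariate, the marker covariates, and each mouse left out (2927 to 3409 higher, 3054 to 3510 lower). With the replicate number as a block they were 3221 and 3270, and the block left calls of named genes unchanged except for 4 lost and 1 gained. Same-numbered mice did not deviate together, with 5 of 24 correlations above 0.1. Fits of fewer mice gave fewer calls, with 2088 higher in libraries 1 to 8, 1423 and 1978 in libraries 9 to 16, 1121 and 1577 in “good” mice and 1642 and 2093 in “poor” mice. Total counts in place of TMM gave 5689 higher. The interaction count of 0 was 1 by DESeq2 (Ano2) and 0 to 2 with a mouse left out, the 2 (Mfsd2a and Sult1a1) without R6/1 “poor” mouse 2. Of the named genes called, Ano2 changed sign in libraries 1 to 8 alone (0.043) and in “good” mice (0.26), and Susd1 in libraries 9 to 16 alone (-0.0063) and in “poor” mice (-0.11). The cause was not tested.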

Other observations

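Gene span divided the effect as follows. Protein-coding genes averaging 3 log2 CPM or more were split by span into 5 equal classes. The longest class (86.1 to 2961 kb) had 20.3% called higher and 25.4% lower, and the middle class (20.4 to 38.5 kb) 26.0% and 17.8%. The shortest class (0.381 to 9.78 kb) had 20.1% and 21.6%, so the shares did not move in 1 direction with span. By biotype, 84 of 894 lincRNAs were called higher and 133 lower, and 95 of 986 antisense transcripts higher and 107 lower, beside 3019 and 2899 of 15306 protein-coding genes. These shares were not tested.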
